A study of Mus musculus with 6 samples.

Results

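The bone formation and resorption genes described here are 31 genes of osteoblasts, osteocytes and osteoclasts, the cells that build, maintain and remove bone. They were chosen by symbol from the 48709 mouse genes of the count table. Each symbol matched 1 row, and all 31 passed the filter on low counts, so 31 of the 20733 genes tested were members. RNA-seq was carried out on total RNA of whole cochleae, depleted of ribosomal RNA, from 3 wild-type (Hgf+/+) mice and 3 littermates homozygous for an engineered allele (Hgfdel10Neo/del10Neo, knock-in), which lacks 10 bp of intron 5 of Hgf and carries a Neo cassette. The strain is a model of DFNB39, a recessive deafness linked to HGF. The mice were 5 to 27 weeks old. The age and sex of each mouse, and the strain background, are not given in the sources used here. Both groups were dissected and frozen in the same way, and the tissue was pulverised whole, so the RNA is that of the cochlea with the bone around it. Libraries held between 24005234 and 42312291 gene counts.

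The cochlea lies in the otic capsule, a shell of dense bone that is known to be remodelled very little in adult life. Osteoblasts, directed by the transcription factors Runx2 and Sp7, secrete type I collagen and mineral-binding proteins and then become osteocytes, which sit in the mineral and signal to other cells through sclerostin and Fgf23. Osteoclasts form from blood-derived precursors when RANKL (Tnfsf11) binds its receptor RANK (Tnfrsf11a), and osteoprotegerin (Tnfrsf11b) is a soluble decoy that binds RANKL and blocks this step. Osteoprotegerin is known to be abundant in the inner ear, and mice that lack it show excess remodelling of the otic capsule.

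Hgf, the targeted gene, had a wild-type mean of 15.6 ± 0.572 CPM and a knock-in mean of 10.07 ± 0.724 CPM (SD over 3 mice each; CPM are a gene's share of the TMM-scaled library, as counts per 1000000). No Hgf value of a knock-in library reached a wild-type one. Its log2 fold change of -0.63 did not pass edgeR's quasi-likelihood test (adjusted p = 0.246). Neo counts were 71 and 199 in knock-in replicates 1 and 2 but 5 in replicate 3, a library labelled knock-in, where wild-type libraries held 5 to 10. Log2 fold changes of bone genes that changed sign or moved by over 1.5 times without that library are given so as well, role by role. The 12 cochlear marker genes listed here were all detected, at a summed 2869 to 3558 CPM per library. The groups did not overlap for 1 of the 12, Otos, beside 8.72% of all genes tested. Its log2 fold change was -0.51 (edgeR adjusted p = 0.966).

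None of the 31 bone genes passed the test between knock-in and wild-type cochlea. With Benjamini-Hochberg adjustment, edgeR's quasi-likelihood test called 0 of 31 members, against 0.0338% of all genes tested, and the lowest adjusted p of a member was 0.966. At an unadjusted p under 0.05 the count was also 0 of 31, against 4.5% of all genes tested. DESeq2 and limma-voom on the same counts called 0 of 31 as well (0.0929% and 0.0386% of all genes), and 0 of 31 had an unadjusted p under 0.05 in either (2.41% and 4.23% of all genes). The groups overlapped for every one of the 31 genes, where they did not overlap for 8.72% of all genes tested. In knock-in, 18 members had higher and 13 lower fitted values, with a median log2 fold change of 0.04 beside 0.00 over all genes tested. Members ran from -0.56 (Tnfsf11) to 0.59 (Calcr).

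For 29 of the 31 genes the 95% interval of the log2 fold change lay inside a 2-fold difference in either direction, beside 17636 of the 20733 genes tested. The intervals of Tnfsf11 and Calcr reached beyond 2-fold. The median half-width of the interval over members was 0.42 log2 units, before any adjustment for the number of genes tested. The labels do not say how the mice were spread over litters. In bulk tissue, fewer cells of a type and less RNA per cell cannot be told apart.

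**Figure D1:**
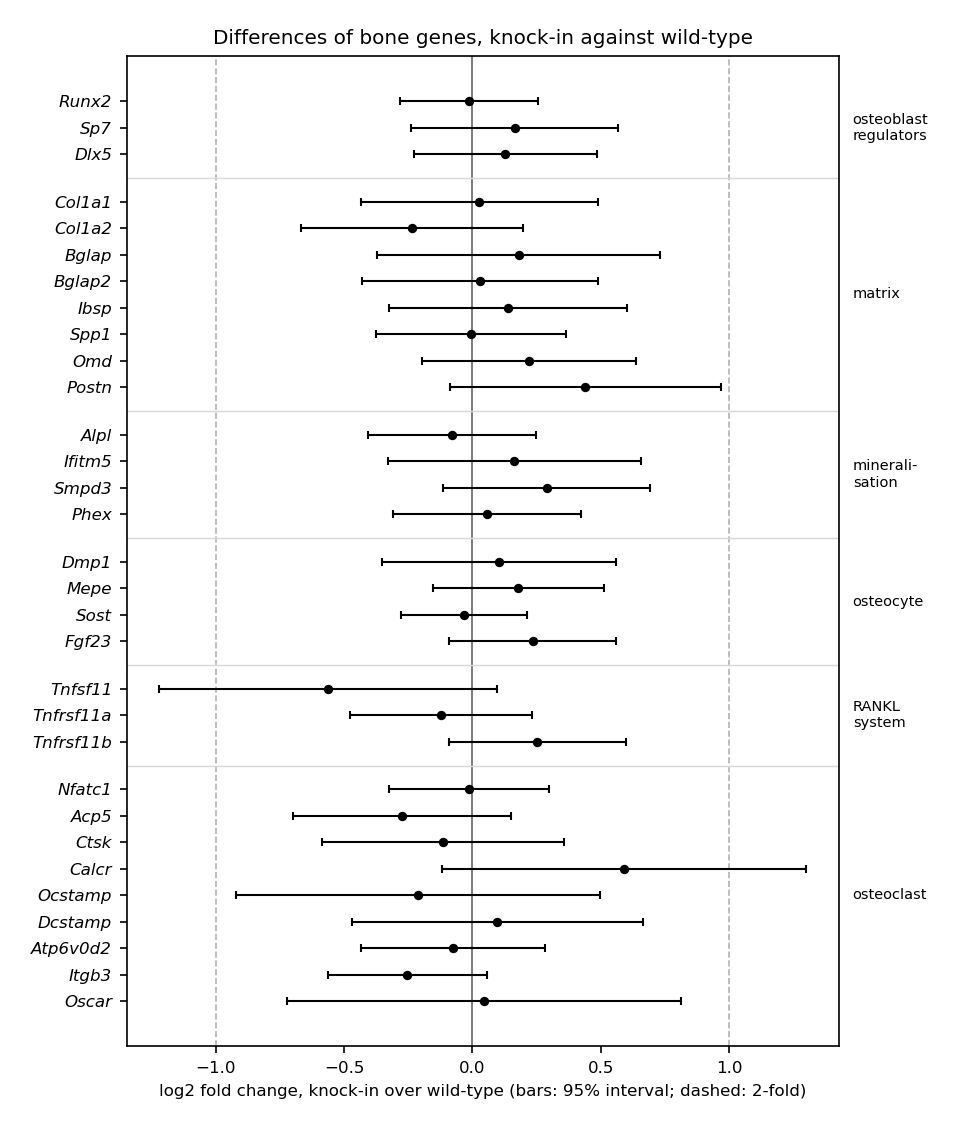
Log2 fold change of each bone gene (x axis, knock-in over wild-type, from edgeR) with its 95% interval, for 3 knock-in against 3 wild-type libraries, with genes on the y axis ordered by role. Every interval includes 0, and only those of Tnfsf11 and Calcr cross the dashed lines at a 2-fold difference.

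The 3 regulators of the osteoblast lineage had values that overlapped between the groups. Runx2, the transcription factor without which no osteoblasts form, was at 57.6, 54.2 and 42.9 CPM in wild-type replicates 1 to 3 and at 49.4, 50.6 and 53.2 CPM in knock-in replicates 1 to 3. The knock-in values all lay within the wild-type range, and the log2 fold change was -0.01 (95% interval -0.28 to 0.26). The Runx2 locus overlaps Supt3 on the other strand, whose counts came to 15.1% of its own. Sp7, which encodes osterix and acts after Runx2, was at 32.0, 30.3 and 22.6 CPM in wild-type and 24.3, 37.6 and 33.1 CPM in knock-in (log2 fold change 0.16, 95% interval -0.24 to 0.57). Its lowest library was wild-type replicate 3 and its highest knock-in replicate 2. Dlx5, a homeobox gene of bone and of the developing ear, was at 4.90, 5.15 and 4.71 CPM in wild-type and 5.55, 5.97 and 4.55 CPM in knock-in. Its 2 highest values were in knock-in replicates 1 and 2 and its lowest in knock-in replicate 3. For Dlx5 the log2 fold change was 0.13, and 0.23 without knock-in replicate 3, where that of Runx2 was -0.04.

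Type I collagen, the main protein of bone, is built from the chains encoded by Col1a1 and Col1a2. Col1a1 was at 3733, 2787 and 2088 CPM in wild-type and 2743, 2756 and 3272 CPM in knock-in, a log2 fold change of 0.03 (95% interval -0.43 to 0.49). Col1a2 was at 4377, 3199 and 2626 CPM in wild-type and 2848, 2654 and 3165 CPM in knock-in, a log2 fold change of -0.24 (95% interval -0.67 to 0.20). Both genes were highest in wild-type replicate 1 and lowest in wild-type replicate 3, so the wild-type libraries alone spanned the whole range of both. Without wild-type replicate 1 the log2 fold change of Col1a1 was 0.26 and that of Col1a2 was -0.01, and without wild-type replicate 3 they were -0.16 and -0.39. Without knock-in replicate 3 that of Col1a1 was -0.06.

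Osteocalcin, a small calcium-binding protein made by mature osteoblasts, is encoded in mouse by neighbouring genes on chromosome 3 of GRCm38, Bglap (88383501 to 88384464) and Bglap2 (88377736 to 88378699), with the related Bglap3 beside them, all on the reverse strand. The coding sequences of Bglap and Bglap2 have 288 bases each and differ at 4, an identity of 98.6%. Of the 348 windows of 93 bases (the read length) in transcript Bglap-201, 206 are found letter for letter in Bglap2, a share of 59.2%. The first 120 coding bases, which hold 3 of the 4 differences (in capitals), show how little separates reads of these genes.
Bglap: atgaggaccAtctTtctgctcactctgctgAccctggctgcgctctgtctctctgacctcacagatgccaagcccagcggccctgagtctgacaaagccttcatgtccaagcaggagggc
Bglap2: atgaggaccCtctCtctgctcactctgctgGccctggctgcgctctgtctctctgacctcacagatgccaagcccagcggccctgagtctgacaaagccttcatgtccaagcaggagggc
Bglap was at 76.9, 115 and 68.3 CPM in wild-type and 66.7, 99.1 and 129 CPM in knock-in, and Bglap2 at 78.7, 115 and 70.3 CPM in wild-type and 68.2, 95.4 and 106 CPM in knock-in. The values of both genes are uncertain, because counting could split or move reads between them. Bglap counts were within the range 1914 to 3407 and those of Bglap3 within 46 to 86 per library. Log2 fold changes were 0.18 (95% interval -0.37 to 0.73) for Bglap and 0.03 (95% interval -0.43 to 0.49) for Bglap2, and -0.07 and -0.11 without knock-in replicate 3.

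The other matrix genes varied among libraries without separating the groups. Ibsp, which encodes bone sialoprotein, a nucleator of mineral, was at 219, 274 and 239 CPM in wild-type and 185, 268 and 353 CPM in knock-in. The knock-in libraries thus held both its lowest and its highest value, and its log2 fold change was 0.14, or -0.11 without knock-in replicate 3. Spp1, which encodes osteopontin, a mineral-binding phosphoprotein also made by macrophages and osteoclasts, was at 1343, 1452 and 1466 CPM in wild-type and 1099.8, 1704 and 1436 CPM in knock-in, a log2 fold change of -0.01 (95% interval -0.38 to 0.36), and -0.02 without knock-in replicate 3. Omd, which encodes osteomodulin, a small proteoglycan of bone, was at 45.8, 56.9 and 55.9 CPM in wild-type and 48.4, 54.5 and 82.2 CPM in knock-in. Its highest value was in knock-in replicate 3, and its log2 fold change was 0.22 with that library and -0.04 without it. Omd lies within the gene Cenpp on the other strand, whose counts came to 13.1% of its own. Reads on bases that exons of both genes share cannot be told apart without strand. Whether exons overlap was not examined for Omd, Runx2 or Smpd3.

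Postn had the largest positive log2 fold change among the bone formation genes. It encodes periostin, a matrix protein of the periosteum and of other collagen-rich tissue, on chromosome 3 of GRCm38 (54361109 to 54391037, forward strand). Wild-type replicates 1 to 3 were at 103, 151 and 122 CPM, and knock-in replicates 1 to 3 at 108, 189 and 215 CPM. Knock-in replicates 2 and 3 lay above every wild-type library, while knock-in replicate 1 lay near the lowest of them. The log2 fold change of 0.44 (SE 0.235, 95% interval -0.09 to 0.97) did not pass the test (edgeR adjusted p = 0.966; unadjusted p = 0.0920) and was 0.24 without knock-in replicate 3. It was 0.69 without knock-in replicate 1 and 0.59 without wild-type replicate 2. In the authors' deposited table Postn was the single bone gene with a p-value under 0.05 (0.0469), beside 3.27% of the features there. That table gives 0.9997 as the adjusted p of Postn.

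**Figure D2:**
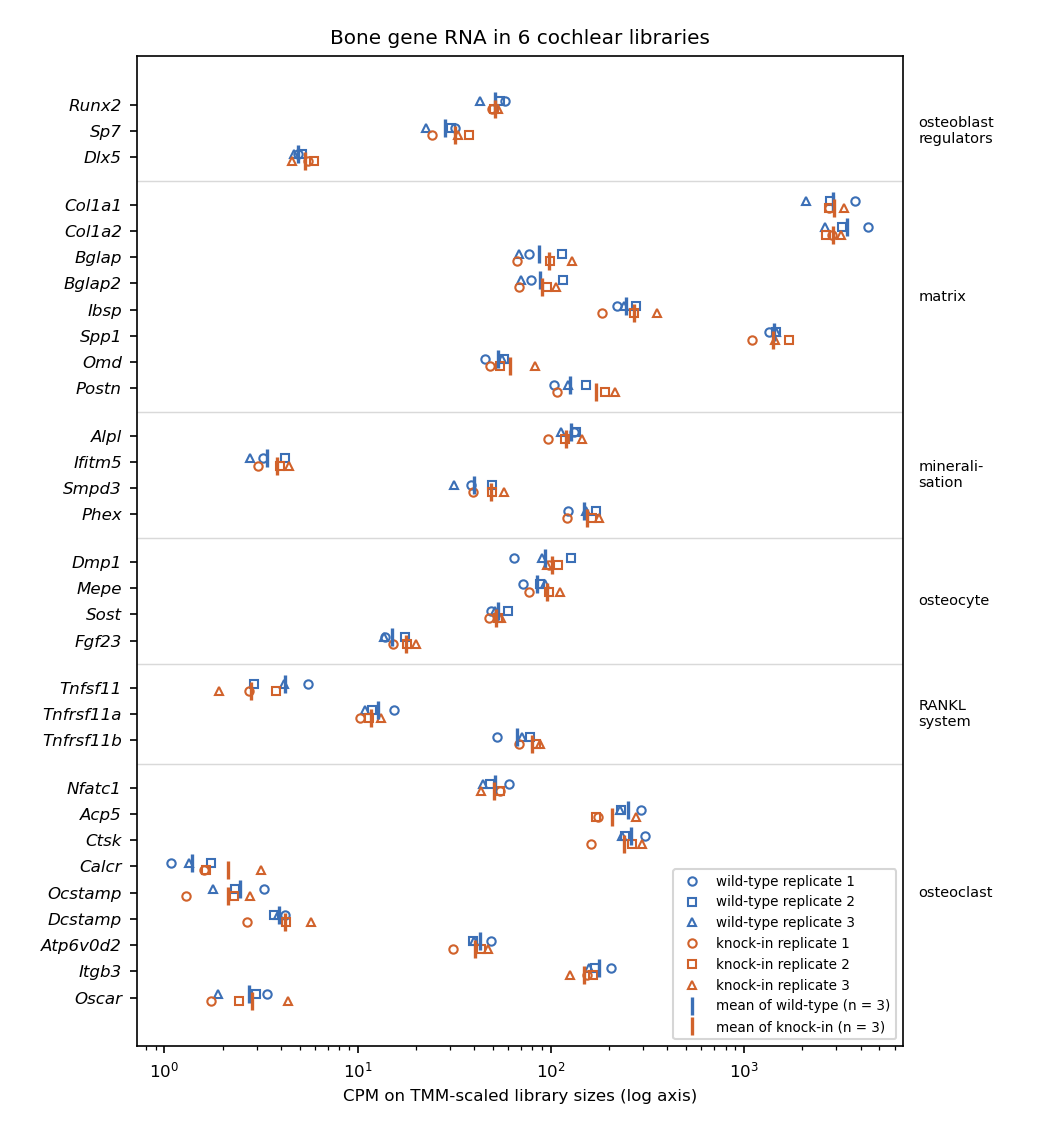
CPM of the 31 bone genes in each library on a log axis, in blue for wild-type and orange for knock-in, with symbols for replicates 1 to 3 and bars for group means (n = 3). The points of both groups overlap for every gene, from Calcr, at 1.09 to 3.16 CPM, to Col1a2, at 2626 to 4377 CPM.

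The 4 mineralisation genes overlapped between groups as well. Alpl, which encodes tissue-nonspecific alkaline phosphatase, the enzyme that frees phosphate for mineral, was at 131, 135 and 113 CPM in wild-type and 97.0, 118 and 144 CPM in knock-in (log2 fold change -0.08, 95% interval -0.41 to 0.25). Phex, an endopeptidase gene whose loss causes X-linked phosphate wasting, was at 123, 170.0 and 151 CPM in wild-type and 121, 164 and 177 CPM in knock-in (log2 fold change 0.06, 95% interval -0.31 to 0.42). Both genes had their lowest library in knock-in replicate 1 and their highest in knock-in replicate 3, and without that library their log2 fold changes were -0.23 and -0.06. Smpd3, which encodes a neutral sphingomyelinase needed for bone mineral, was at 38.5, 49.4 and 31.6 CPM in wild-type and 39.5, 49.3 and 57.2 CPM in knock-in. Its log2 fold change of 0.29 (95% interval -0.11 to 0.69) was 0.16 without knock-in replicate 3. The Smpd3 locus overlaps Prmt7 on the other strand, whose counts came to 51.6% of its own. Ifitm5, a membrane protein gene of osteoblasts known for its mutation in a form of brittle bone disease, had a wild-type mean of 3.40 ± 0.735 CPM and a knock-in mean of 3.81 ± 0.698 CPM (SD over 3 mice each). The fitted log2 fold change of Ifitm5 was 0.16, or 0.05 without knock-in replicate 3.

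Osteocyte genes were present in every library, and 3 of the 4 had positive log2 fold changes. Dmp1, an acidic matrix protein gene of osteocytes, was at 64.6, 127 and 89.5 CPM in wild-type and 97.3, 109 and 95.6 CPM in knock-in. Wild-type replicates 1 and 2 held its lowest and highest values, with the knock-in libraries between them. Mepe, which encodes another phosphoprotein of osteocytes, was at 71.5, 88.0 and 93.1 CPM in wild-type and 77.3, 97.7 and 111 CPM in knock-in (log2 fold change 0.18, 95% interval -0.15 to 0.51). Dmp1, Ibsp, Mepe and Spp1 lie side by side on chromosome 5 of GRCm38, between 104202613 and 104441050, all on the forward strand. Sost, which encodes sclerostin, an inhibitor of Wnt signalling, had the narrowest spread of all 31 genes. It was at 48.8, 59.9 and 51.5 CPM in wild-type and 47.8, 53.4 and 55.3 CPM in knock-in, and its highest library exceeded its lowest 1.25-fold. Fgf23, the phosphate-lowering hormone gene of osteocytes, was at 13.8, 17.6 and 13.7 CPM in wild-type and 15.2, 17.9 and 19.9 CPM in knock-in (log2 fold change 0.23, 95% interval -0.09 to 0.56). Without knock-in replicate 3, the highest library for Mepe and Fgf23, the log2 fold change was 0.05 for Mepe, 0.14 for Fgf23 and -0.08 for Sost, beside -0.03 for Sost with all libraries.

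In the RANKL system the ligand and its decoy receptor had fitted differences of opposite sign, neither past the test. The ligand gene lies on chromosome 14 (78277445 to 78308043) and the decoy gene on chromosome 15 (54250619 to 54278484) of GRCm38, both on the reverse strand. Tnfsf11, the ligand, was scarce, with 44 to 174 counts per library, and was at 5.55, 2.89 and 4.16 CPM in wild-type and 2.75, 3.79 and 1.91 CPM in knock-in. Wild-type replicate 1 was its highest and knock-in replicate 3 its lowest library, and the groups overlapped through wild-type replicate 2 and knock-in replicate 2. Its log2 fold change was -0.56 (SE 0.294, 95% interval -1.22 to 0.10; edgeR adjusted p = 0.966), and it was -0.32 when wild-type replicate 1 was left out and -0.36 when knock-in replicate 3 was. Tnfrsf11b, the decoy receptor, was at 52.5, 78.1 and 70.5 CPM in wild-type and 68.5, 83.2 and 88.2 CPM in knock-in, a log2 fold change of 0.25 (95% interval -0.09 to 0.60). Its lowest library was wild-type replicate 1, and without it the log2 fold change was 0.10, while without wild-type replicate 2 it was 0.38. Tnfrsf11a, the signalling receptor of osteoclast precursors, was at 15.4, 11.8 and 10.9 CPM in wild-type and 10.3, 11.5 and 13.2 CPM in knock-in, a log2 fold change of -0.12 that was -0.22 without knock-in replicate 3.

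The log2 ratio of Tnfsf11 to Tnfrsf11b CPM, used here to compare libraries and not the levels of these genes, was -3.24, -4.75 and -4.08 in wild-type and -4.64, -4.46 and -5.53 in knock-in. The wild-type mean was -4.03 ± 0.757 and the knock-in mean -4.88 ± 0.574 (SD over 3 mice each). The difference of -0.85 did not pass an exact permutation test (two-sided, p = 0.30; 3 against 3 cannot go below 0.10). Wild-type replicate 2 lay below knock-in replicates 1 and 2. Without wild-type replicate 1 or knock-in replicate 3 the difference was -0.46 or -0.52. Without wild-type replicate 2 or knock-in replicate 2 it was -1.21 or -1.06.

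**Figure D3:**
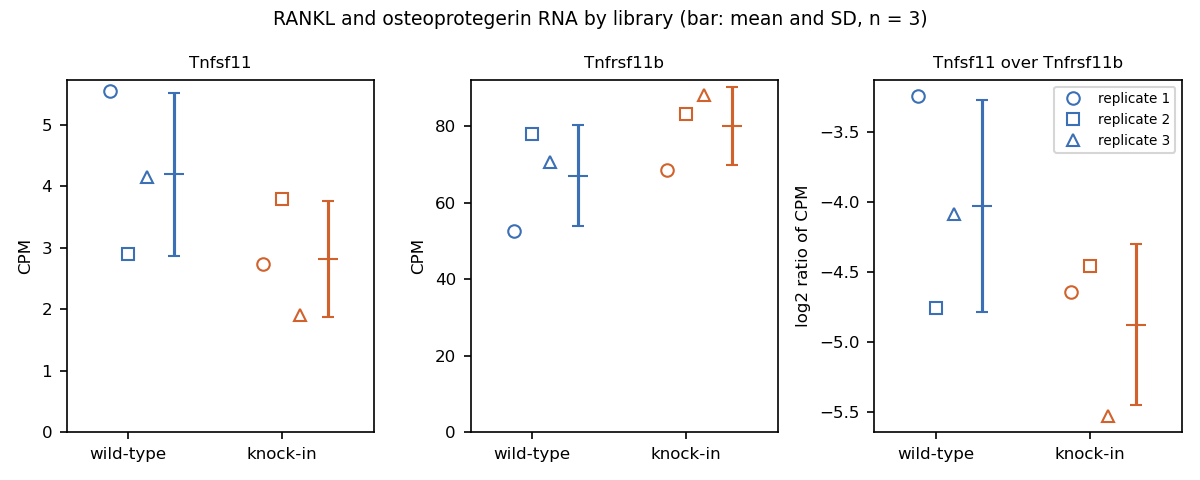
CPM of Tnfsf11 and of Tnfrsf11b, and the log2 ratio of their CPM, in each wild-type (blue) and knock-in (orange) library, with mean and SD (n = 3) beside the points. The ratio runs from -3.24 in wild-type replicate 1 to -5.53 in knock-in replicate 3, and the other 4 libraries of both groups lie between -4.75 and -4.08.

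Osteoclast genes had 6 negative and 3 positive log2 fold changes, with a median of -0.08. Nfatc1, the master transcription factor of osteoclasts, also used in other cells, was at 60.6, 48.6 and 44.6 CPM in wild-type and 54.5, 54.3 and 43.3 CPM in knock-in (log2 fold change -0.01, 95% interval -0.33 to 0.30). Acp5, which encodes tartrate-resistant acid phosphatase, was at 294, 232 and 226 CPM in wild-type and 176, 172 and 274 CPM in knock-in. Knock-in replicates 1 and 2 were below every wild-type library, and knock-in replicate 3 was above wild-type replicates 2 and 3. Its log2 fold change was -0.27 (95% interval -0.70 to 0.15), and -0.53 without knock-in replicate 3, the library with Neo at the wild-type level. In that fit its unadjusted p was under 0.05, as for 3.88% of genes, but the lowest adjusted p among the bone genes was 0.999. Ctsk, which encodes cathepsin K, the protease that cleaves bone collagen, was at 305, 242 and 232 CPM in wild-type and 161, 263 and 296 CPM in knock-in. Only knock-in replicate 1 lay outside the wild-type range, and the log2 fold change was -0.11 (95% interval -0.58 to 0.36).

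Atp6v0d2, a subunit of the proton pump of osteoclasts, was at 48.9, 39.3 and 40.1 CPM in wild-type and 31.1, 43.3 and 47.3 CPM in knock-in. Itgb3, the integrin chain by which osteoclasts attach to bone and which platelets also carry, was at 205, 169 and 158 CPM in wild-type and 154, 166 and 126 CPM in knock-in. Only knock-in replicate 2 reached into the wild-type range of Itgb3, and its log2 fold change was -0.25 (95% interval -0.56 to 0.06), or -0.15 without knock-in replicate 3. The other 4 osteoclast genes were at 1.09 to 5.72 CPM in all libraries. Calcr, the calcitonin receptor gene, had a wild-type mean of 1.39 ± 0.335 CPM and a knock-in mean of 2.13 ± 0.892 CPM (SD over 3 mice each). Its log2 fold change of 0.59 (95% interval -0.12 to 1.30) rested on knock-in replicate 3 at 3.16 CPM and was 0.21 without it. The fusion genes Ocstamp and Dcstamp and the receptor gene Oscar had log2 fold changes of -0.21, 0.10 and 0.04, each with an interval that included 0. Without knock-in replicate 3 these were -0.44, -0.18 and -0.38, so that Dcstamp and Oscar changed sign. Nfatc1, Ctsk and Atp6v0d2 were then at 0.09, -0.29 and -0.20, beside -0.01, -0.11 and -0.08 with all libraries.

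Much of the variation of the bone genes lay between libraries of one group, and it ran across genes. Knock-in replicate 3 was the highest library for 14 of the 31 genes and wild-type replicate 1 for 11, while knock-in replicate 1 was the lowest for 13. Such counts over all genes tested are not given here, so the pattern is not shown to be particular to bone genes. Among the 19 genes of formation, mineralisation and osteocytes, knock-in replicate 3 was above the mean of the 6 libraries for 18 and wild-type replicate 2 for 17. Knock-in replicate 1 was above that mean for 2 of the 19, and wild-type replicate 3 for 3. Wild-type replicate 1 differed between and within roles. It was above the mean for 8 of the 9 osteoclast genes, but for 5 of the 19 genes of formation, mineralisation and osteocytes. Among the 8 matrix genes it was above for 2, both of them collagen genes. It was above for 2 of the 3 regulators, 1 of the 4 mineralisation genes and 0 of the 4 osteocyte genes, and for 2 of the 3 RANKL system genes. The summed level of the 9 osteoclast genes was 925, 741 and 709.6 CPM in wild-type and 583, 709.0 and 803 CPM in knock-in, and that of the 4 osteocyte genes was 199, 292 and 248 CPM in wild-type and 238, 278 and 282 CPM in knock-in.

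**Figure D4:**
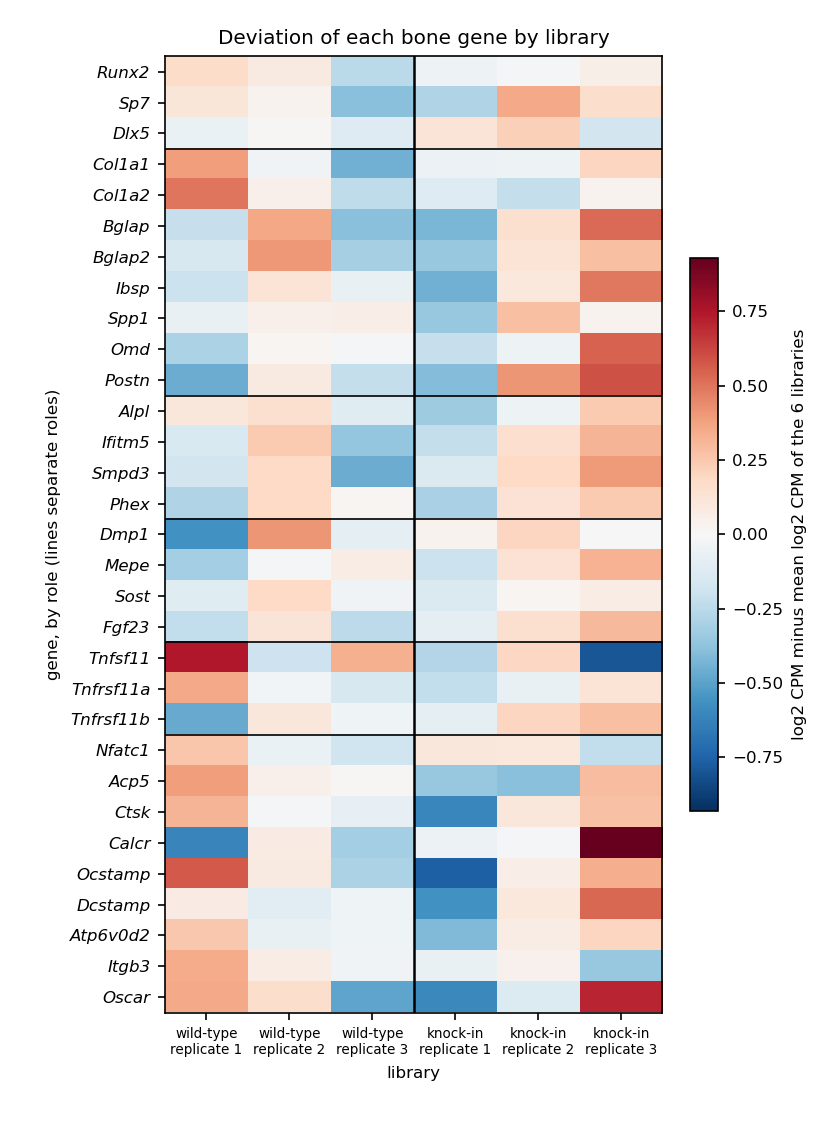
Deviation of each bone gene's log2 CPM from its mean over the 6 libraries (colour scale), with libraries in columns and genes in rows by role. Knock-in replicate 3 is red for most genes, as 27 of 31 lie above their mean there, and knock-in replicate 1 is blue, with 3 of 31 above.

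The test was also repeated with each library left out, on 2 against 3 mice. Again 0 of 31 passed in every such fit, as 0.0996%, 0.0332% and 0.0142% of genes did without knock-in replicates 1, 2 and 3, and 0.0189%, 0.0142% and 0.0284% without wild-type replicates 1, 2 and 3. Without knock-in replicate 1, the library low in bone genes, 25 of 31 log2 fold changes were positive with a median of 0.15. Postn, Smpd3, Mepe and Calcr then had an unadjusted p under 0.05, as 9.04% of all genes did. Without knock-in replicate 3, the library high in bone genes, 11 of 31 were positive with a median of -0.06, and Acp5 alone had such a p. Without wild-type replicate 2 the genes with such a p were Postn, Smpd3, Dmp1, Fgf23, Tnfsf11 and Tnfrsf11b, beside 5.87% of all genes, and without knock-in replicate 2 it was Tnfsf11 alone, beside 3.23%. Leaving out wild-type replicate 1 or 3 gave 0 of 31, beside 4.01% and 3.22% of all genes. The sign of the median over the bone genes thus turned on which knock-in library was left out.

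RLE and upper-quartile normalization and a stricter filter also gave 0 of 31 called (0.0338%, 0.0338% and 0.0404% of all genes) and 0 of 31 at an unadjusted p under 0.05 (4.55%, 4.55% and 4.34%). With no filter 0 of 31 were called (0.223%), and Postn, Tnfsf11 and Calcr had an unadjusted p under 0.05 (4.86%). The authors' deposited table lists all 31 members with 0 at an adjusted p under 0.05, where 0.181% of its features were, and its log2 fold changes had the same sign as edgeR's for all 31.

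Per kilobase of annotated exon, Spp1 was the most abundant bone gene, at 862 ± 41.0 CPM per kb in wild-type and 857 ± 184 in knock-in (SD over 3 mice each). Col1a1 came next, at 437 ± 126 CPM per kb in wild-type and 446 ± 46.0 in knock-in, with a wild-type spread that spanned the knock-in values. With the longest coding transcript as the length, the order of the collagen chains turned, at 588 CPM per kb for Col1a2 and 488 for Col1a1 over all libraries, and Spp1 stayed first at 940. By the exon measure, Tnfrsf11b was at 23.8 ± 4.66 and Tnfsf11 at 1.88 ± 0.594 CPM per kb in wild-type (SD over 3 mice), so that the decoy receptor was more abundant than the ligand in these cochleae. Calcr was the scarcest of the 31, at 0.356 ± 0.0857 CPM per kb in wild-type (SD, n = 3).

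Promoter sequences, from RefSeq on GRCm38.p6, were matched for 20 of the 31 genes, with 27 start sites among them. They were searched on both strands for the letters AACCACA (a RUNX motif), TGGAAA (NFAT) and TCATGTG (MITF), in windows of 300 bases, 250 of them upstream. AACCACA was in 3 of 27 bone gene windows (11.1%, those of Dmp1, Runx2 and Spp1), beside 5.27% of all 32851 windows. TGGAAA was in 8 (29.6%, beside 21.4%) and TCATGTG in 3 (11.1%, beside 3.77%; Acp5, Bglap and Runx2). The Runx2 matches to AACCACA and TCATGTG share letters. ACCACA, which lies within AACCACA and was searched after the first results were seen, was in 5 (18.5%, beside 16.8%). A match of letters is a description and not a site of binding. The 250 bases before the start are shown for a gene of osteoblasts, one of both cell types and one of osteoclasts, with these matches in capitals: ACCACA at Bglap (chr3:88384467-88384716, reverse strand), AACCACA at Spp1 (chr5:104434861-104435110, forward strand), and TTTCCA and CACATGA, the reverse complements of the NFAT and MITF letters, at a RefSeq start within the GENCODE model of Acp5 (chr9:22130599-22130848, reverse strand). The MITF match of Bglap, CACATGA, is left in lower case.
Bglap: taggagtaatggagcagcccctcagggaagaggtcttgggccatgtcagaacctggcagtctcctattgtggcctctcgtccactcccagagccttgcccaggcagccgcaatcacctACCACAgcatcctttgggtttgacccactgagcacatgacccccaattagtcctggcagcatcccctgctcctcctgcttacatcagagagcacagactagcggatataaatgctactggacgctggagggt
Spp1: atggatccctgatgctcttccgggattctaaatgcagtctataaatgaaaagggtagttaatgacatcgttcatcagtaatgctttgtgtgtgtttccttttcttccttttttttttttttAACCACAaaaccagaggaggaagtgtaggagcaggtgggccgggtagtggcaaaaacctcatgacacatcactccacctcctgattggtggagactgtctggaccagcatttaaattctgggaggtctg
Acp5: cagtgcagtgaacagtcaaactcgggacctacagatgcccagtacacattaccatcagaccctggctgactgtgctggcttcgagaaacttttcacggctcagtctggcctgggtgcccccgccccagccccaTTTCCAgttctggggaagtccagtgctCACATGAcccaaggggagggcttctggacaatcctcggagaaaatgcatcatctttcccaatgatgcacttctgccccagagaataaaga

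No other listed gene of the same processes passed the test. Of 26 tested genes of bone signalling and regulation, 0 were called and 16 had positive log2 fold changes, with a median of 0.04. The smallest p belonged to Bmp4 and Bmp2, ligands that induce bone, Lrp5, a Wnt co-receptor, and Sfrp4, a secreted Wnt antagonist. Their log2 fold changes were 0.27, 0.21, 0.23 and -0.25, in that order. Of 29 genes of matrix, collagen processing and mineral, 0 were called and 17 were positive, with a median of 0.02. Log2 fold changes were 0.30 for Plod2, a collagen lysyl hydroxylase gene, 0.55 for Tnn, the tenascin-W gene of periosteum, and 0.23 for Ptprz1, a receptor phosphatase gene. Gja1, the connexin gene of osteocyte gap junctions and of many other cells, was at 81.8, 74.3 and 78.7 CPM in wild-type and 67.3, 62.3 and 74.1 CPM in knock-in. Gja1 was the 1 gene of these 29 whose groups did not overlap, by a narrow margin, beside 8.72% of all genes tested. Its log2 fold change was -0.20 (SE 0.0987, edgeR adjusted p = 0.966).

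Of 24 other genes of osteoclast formation and function, 0 were called and 8 were positive, with a median of -0.10. The single one with an unadjusted p under 0.05, beside 4.5% of all genes tested, was Fos. Osteoclast precursors need Fos, and most cells induce it within minutes of a stimulus. It was at 79.9, 10.9 and 10.5 CPM in wild-type and 6.82, 11.2 and 9.45 CPM in knock-in, so that wild-type replicate 1 alone stood apart. Next by p came Prdm1, a repressor gene, Mmp14, a membrane-bound matrix metalloproteinase gene, and Csf1, the growth factor gene of macrophages and osteoclast precursors. Their log2 fold changes were -0.34, -0.19 and -0.19. The 1 gene of these 24 whose groups did not overlap, beside 8.72% of all genes tested, was Itgav, the integrin partner of Itgb3. It was singled out after its values were seen. It was at 141, 140.4 and 137 CPM in wild-type and 134, 131 and 119 CPM in knock-in, a log2 fold change of -0.12 with an edgeR adjusted p of 0.966.

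Markers of tissue that can come with the cochlea also varied among the libraries, and their part in the bone gene values was not tested. No marker was without counts in all 6 libraries. The 12 adipocyte genes summed to 2018 CPM in knock-in replicate 3, the highest library for 14 of the 31 bone genes. They summed to 908 CPM in knock-in replicate 1, the lowest library for 13 bone genes. In wild-type replicate 1, the highest library for 11 bone genes, they summed to 310 CPM, and elsewhere to 489 to 530 CPM. All 12 adipocyte genes had positive log2 fold changes, from 0.65 to 3.26 with a median of 1.57. All 12 had an unadjusted p under 0.05, beside 4.5% of all genes tested, and 0 passed. The groups did not overlap for 4 of the 12 adipocyte genes, beside 8.72% of all genes tested. The 17 cartilage genes summed to 865 to 1197 CPM in wild-type and 980 to 1408 CPM in knock-in. Of these genes 15 were positive and 8 had an unadjusted p under 0.05, beside 4.5% of all genes tested. Among them Col10a1, the collagen gene of hypertrophic cartilage that precedes bone, was at 4.14, 3.33 and 3.54 CPM in wild-type and 9.96, 83.6 and 50.4 CPM in knock-in, a log2 fold change of 3.71 (SE 0.623; edgeR adjusted p = 0.196). The groups did not overlap for Col10a1, 1 of 4 such genes among the 17, beside 8.72% of all genes tested. Knock-in replicate 2, its highest library, was above the 6-library mean for 22 of the 31 bone genes, and wild-type replicate 2, its lowest, for 23. The 7 tendon and periosteum genes, 6 of them positive, summed to 495 CPM in knock-in replicate 3 and to 293 to 375 CPM elsewhere. Marrow genes had overlapping sums, 9287 to 14030 CPM in wild-type and 9919 to 13160 CPM in knock-in for 12 erythroid genes, and 10404 to 14506 and 10976 to 13472 CPM for 13 neutrophil genes. The 8 B lineage genes summed to 240.0 to 458 CPM in wild-type and 212 to 388 CPM in knock-in, and the 10 macrophage genes to 1987 to 3195 and 2322 to 2821 CPM. The 10 skeletal muscle genes summed to 3686 to 5943 CPM in wild-type and 2843 to 4819 CPM in knock-in. Positive log2 fold changes were found for 2 of the erythroid, 4 of the neutrophil, 0 of the B lineage, 1 of the macrophage and 0 of the muscle genes, and 0 genes of any of these lists were called. An unadjusted p under 0.05 was found for 2 neutrophil, 1 muscle and 1 tendon and periosteum gene, beside 4.5% of all genes tested. It was found for 0 of the erythroid, B lineage and macrophage genes. Of 11 genes of juvenile growth and proliferation, which fall with age, 5 were positive and 6 negative, summing to 1466 to 1902 CPM in wild-type and 1482 to 1822 CPM in knock-in. Dlk1 alone had an unadjusted p under 0.05, beside 4.5% of all genes tested. It was at 0.884 to 4.74 CPM in wild-type and 0.478 to 1.04 CPM in knock-in.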

How the data were processed

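Per the submitters' processing notes, reads were mapped by the authors with STAR 2.5.2 to GRCm38 (GENCODE M11), and DESeq2 was used. They deposited raw counts per gene; the counting program and its strand setting are not given in the sources used here. Their deposited comparison gives a mean signal (counts over size factors), log2 fold changes, a test score and p-values. A deposited table of log values was not used. The 24 rows that name no mouse gene took between 0.00151% and 0.0045% of counts and stayed out of all totals.

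Names, coordinates and exon lengths came from GENCODE M21, which is on the same build; 48349 of 48709 identifiers matched. Counts were filtered with filterByExpr, TMM-normalised and tested with edgeR 4.0.16 (glmQLFit, glmQLFTest, group as the only term) in R 4.3.3. P-values were adjusted over all 20733 genes (threshold 0.05), and the code was tested on simulated data. With 3 against 3 simulated libraries, 39 of 50 genes raised 2-fold and 39 of 50 set to 0.5-fold were called. At 1.5-fold and 0.667-fold, 9 of 50 and 7 of 50 were called. Genes with low counts were not among those changed. The ratio used scipy 1.17.1. The comparison was repeated with DESeq2 1.42.0, with limma-voom (limma 3.58.1), without a filter, with a filter of 1 CPM in 3 libraries, after RLE or upper-quartile scaling, and without each library. No protein table was used here; osteocalcin coding sequences were compared instead, and the ACCACA motif and the transcript length were added, after values were seen. Members, lists and motifs were chosen with earlier results of these data known. Members at 5 CPM or more in a group are given by library. From each list of other bone genes, up to 4 genes with the smallest p are named. Of the marker and juvenile growth lists, only Otos, Col10a1 and Dlk1 are named. Replicate numbers were given here in the order of the samples, as the labels number no replicates. The p-values set a group difference against the spread between these mice. CPM rest on 24005234 to 42312291 counts per library.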

Additional observations from a re-analysis of the deposited data

Results flagged for a closer look

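Reads of the Neo cassette, a sequence outside the comparisons of mouse genes, were above the wild-type level in some knock-in libraries. Knock-in replicate 1 held 71 Neo counts (2.06 CPM of unscaled mouse gene counts, exact 95% Poisson interval 1.61 to 2.60) and replicate 2 held 199 (6.99 CPM, 6.06 to 8.04). Wild-type libraries held 5, 8 and 10, and replicate 3, a library labelled knock-in, held 5 (0.208 CPM, 0.0676 to 0.486). These intervals cover counting error only. Hgf in that library, at 10.5 CPM, was at the knock-in level.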

How the results depend on the processing

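No bone gene passed the threshold in any of the 12 other settings. The count of all genes called, 7, was 28 with DESeq2 and 76 with no filter, and 3 to 21 with a library left out. Upper-quartile normalization turned the sign of Spp1 (0.0066) and Nfatc1 (0.00026), and limma-voom that of Oscar (-0.013). In all, 18 of the 31 log2 fold changes changed sign in some setting and 13 kept it. With 1 library left out they ran from -0.13 to 0.072 for Runx2, -0.16 to 0.26 for Col1a1, -0.065 to 0.43 for Bglap, -0.11 to 0.27 for Bglap2, -0.11 to 0.35 for Ibsp, -0.16 to 0.15 for Spp1, -0.044 to 0.37 for Omd, -0.23 to 0.056 for Alpl, -0.061 to 0.21 for Phex, -0.10 to 0.38 for Dmp1, -0.095 to 0.057 for Sost, -0.23 to 0.034 for Tnfrsf11a, -0.11 to 0.12 for Nfatc1, -0.29 to 0.11 for Ctsk, -0.44 to 0.060 for Ocstamp, -0.18 to 0.35 for Dcstamp, -0.20 to 0.087 for Atp6v0d2 and -0.38 to 0.31 for Oscar. The cause of these changes was not tested, beyond there being fewer samples. The difference in the log2 ratio of Tnfsf11 to Tnfrsf11b ran from -1.21 to -0.46, with exact permutation p of 0.2 to 0.6, where 0.2 is the smallest that 2 against 3 allows. Calcr had the fewest counts of the 31 bone genes, 309 over all libraries. No paired analysis was possible because the labels do not match wild-type with knock-in mice.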
